A study of Mus musculus with 9 samples.

Results

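The phase II transferases examined here are the glutathione S-transferases (Gst), the UDP-glucuronosyltransferases (Ugt) and the cytosolic sulfotransferases (Sult) of mouse liver. Members were taken by name: every protein-coding gene of the table whose symbol is Gst with a class letter and a digit, or Ugt or Sult with a digit. This gave 49 of 16755 genes, of which 20 are Gst, 19 are Ugt and 10 are Sult. Of these, 43 had a mean of at least 1 normalized count over the groups, namely 20 Gst, 17 Ugt and 6 Sult genes. Another 3 genes with a Gst, Ugt or Sult name, Gstm2-ps1, Gstp-ps and Gstcd, fell outside the rule. Polyadenylated RNA of whole liver tissue was sequenced from 3 groups of 3 male C57BL/6 mice. All groups carry Scd2f/f, that is, Scd2 with a floxed exon. The control livers came from untreated Scd2f/f mice. The other mice received diethylnitrosamine (DEN), a liver carcinogen, when they were 2 weeks old (10 mg/kg). At 6 weeks they were put on Western alcohol diet (WAD), in which lard and cholesterol are given with ethanol in liquid form. They were Scd2f/f mice or Scd2f/f;Col1a1-Cre (Scd2f/f;CC) mice, whose Cre is driven by the Col1a1 promoter and is meant to act in activated hepatic stellate cells and portal fibroblasts. Their tissue is called liver in the sample labels. The study calls it tumor-adjacent liver (TAL) in its results, the name used here, and NTL in its methods for RNA sequencing. The labels mark the control samples as untreated, and this was followed, although their treatment text repeats that of the treated samples. The labels give 4 months of diet, whereas the study's text gives a longer time.

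Conjugation is the second phase of drug and hormone clearance. Gst enzymes attach glutathione to reactive electrophiles, Ugt enzymes attach glucuronic acid from UDP-glucuronic acid to bilirubin, bile acids, steroids and drugs, and Sult enzymes attach sulfate from the donor PAPS to steroids, phenols and bile acids. The products are more soluble in water and leave the hepatocyte through export pumps. Hepatocytes are the main site of all 3 families, and many members respond to NRF2, to xenobiotic receptors or to the sex pattern of growth hormone.

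The authors' deposited table gives 1 mean for each group, a least-squares mean of upper-quartile normalized counts. No value of a single mouse was used here. The spread between mice is therefore unknown, and every difference below is a ratio of the authors' means without a test. A gene is counted where the ratio reached 2-fold and its mean over the groups was at least 1, which held for 11784 genes. The depth of the libraries is unknown. The 75th percentile of the means was 15.5 in control liver and in Scd2f/f TAL, and Scd2f/f;CC TAL had 15.4. Scd2, the targeted gene, had a mean of 2.46 in control liver, 6.47 after DEN and WAD and 1.87 after the same treatment with Cre. Alb, which marks hepatocytes, was at 21300, 20900 and 22700 in the same order, and this order of groups is kept throughout.

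Several members are near copies of each other, and for these the values below are less certain, since reads from identical stretches were divided between copies by an estimate. Of 49 members, 19 share more than 10% of their stretches of 50 bases with the transcripts of another gene in GENCODE M21. The clearest case is a group of Ugt2b genes on chromosome 5, whose coding sequences are shown here because the largest differences of all members lie in it. Bases 466 to 555 of the coding sequence are a window chosen for the most bases differing from Ugt2b5 in Ugt2b37 and Ugt2b38 together. They run as follows on the coding strand (GENCODE M21, GRCm38), with capitals marking bases that differ from Ugt2b5.
Ugt2b5: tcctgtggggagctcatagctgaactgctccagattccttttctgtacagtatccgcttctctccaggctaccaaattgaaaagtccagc
Ugt2b37: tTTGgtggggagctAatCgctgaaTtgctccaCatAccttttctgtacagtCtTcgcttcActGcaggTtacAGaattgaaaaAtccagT
Ugt2b38: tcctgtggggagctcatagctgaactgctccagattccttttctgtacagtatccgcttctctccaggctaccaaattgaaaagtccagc
In this window, Ugt2b37 differs from Ugt2b5 at 17 of 90 bases and Ugt2b38 at 0 of 90. Over the whole coding sequence of 1590 bases, Ugt2b37 differs at 85 and Ugt2b38 at 47, which makes them 94.7% and 97.0% identical to Ugt2b5. A read of 50 bases from within the window can thus be told apart for Ugt2b37 and cannot for Ugt2b38. Of all 50-base stretches, 18.3% of Ugt2b37, 37.4% of Ugt2b38 and 41.7% of Ugt2b5 occur in another gene.

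Ugt2b37 and Ugt2b38 were far lower in Scd2f/f TAL than in control liver and intermediate in Scd2f/f;CC TAL. Both belong to the Ugt2b subfamily, which glucuronidates steroids, bile acids and drugs. The mean of Ugt2b37 (chr5:87240493-87254804, minus strand, GRCm38) was 38.7 in control liver and 2.48 in Scd2f/f TAL, with Scd2f/f;CC TAL between them at 7.5. That is 15.6-fold lower in Scd2f/f TAL than in control liver, and 3.02-fold higher in Scd2f/f;CC TAL than in Scd2f/f TAL. The mean of Ugt2b38 (chr5:87409942-87424203, minus strand) was 56.3, 6.25 and 23. Here the ratios were 9.01-fold lower and 3.68-fold higher. Neither gene reached its control level in Scd2f/f;CC TAL, where Ugt2b37 was 5.16-fold and Ugt2b38 2.45-fold below control liver. Ugt2b5 (chr5:87124960-87140318, minus strand), the near copy, did not share this pattern, with means of 899, 801 and 722. Per kilobase, with all M21 exons of a gene merged, Ugt2b5 was at 435 over the groups, while Ugt2b38 stood at 15.1 and Ugt2b37 at 8.57. Ugt2b5 was the highest of the 49 members by this measure, nearly level with Gstp1 at 433. The order of these 2 rests on the exon lengths used and on the division of shared reads. The part that shared reads play in the 2 ratios was not tested.

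The bases before the start of the 3 genes are shown because Ugt2b37 and Ugt2b38 differed from Ugt2b5 in the data while their coding sequences are nearly alike. They were read from RefSeq promoter windows on GRCm38.p6, on the minus strand, and end at the annotated start or at the edge of the M21 transcript. Capitals mark bases that differ from Ugt2b5 or face a gap in the alignment with it. Ugt2b5 is chr5:87140341-87140590, Ugt2b37 is chr5:87254805-87255038 and Ugt2b38 is chr5:87424204-87424453.
Ugt2b5: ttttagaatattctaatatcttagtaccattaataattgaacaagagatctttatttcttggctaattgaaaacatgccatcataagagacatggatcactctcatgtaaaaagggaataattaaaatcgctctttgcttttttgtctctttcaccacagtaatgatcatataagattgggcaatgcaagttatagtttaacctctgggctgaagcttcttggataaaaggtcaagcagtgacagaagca
Ugt2b37: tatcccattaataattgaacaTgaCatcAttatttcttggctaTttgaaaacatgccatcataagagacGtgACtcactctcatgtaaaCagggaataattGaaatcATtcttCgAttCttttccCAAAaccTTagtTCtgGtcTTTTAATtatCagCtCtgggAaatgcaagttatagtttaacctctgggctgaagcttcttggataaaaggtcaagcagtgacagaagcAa
Ugt2b38: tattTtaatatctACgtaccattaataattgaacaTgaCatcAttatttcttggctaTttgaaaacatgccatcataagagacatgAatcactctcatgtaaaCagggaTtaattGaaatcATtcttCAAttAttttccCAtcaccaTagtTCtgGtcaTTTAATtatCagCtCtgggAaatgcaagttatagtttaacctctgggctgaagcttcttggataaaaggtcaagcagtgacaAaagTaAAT
Against Ugt2b5, the upstream bases of Ugt2b37 were 77.1% identical, with 27 mismatches and 32 gapped positions, and those of Ugt2b38 were 81.5% identical, with 28 mismatches and 20 gapped positions, unaligned ends included. Ugt2b37 and Ugt2b38 were closer to each other, at 88.8%, with 12 mismatches and 16 gapped positions. Their coding sequences are 94.1% identical, so for this pair the lower upstream value depends on counting gapped positions. Against Ugt2b5, both genes are less alike before their start than within their coding sequence. Which of these bases, if any, act in transcription was not tested.

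**Figure D1:**
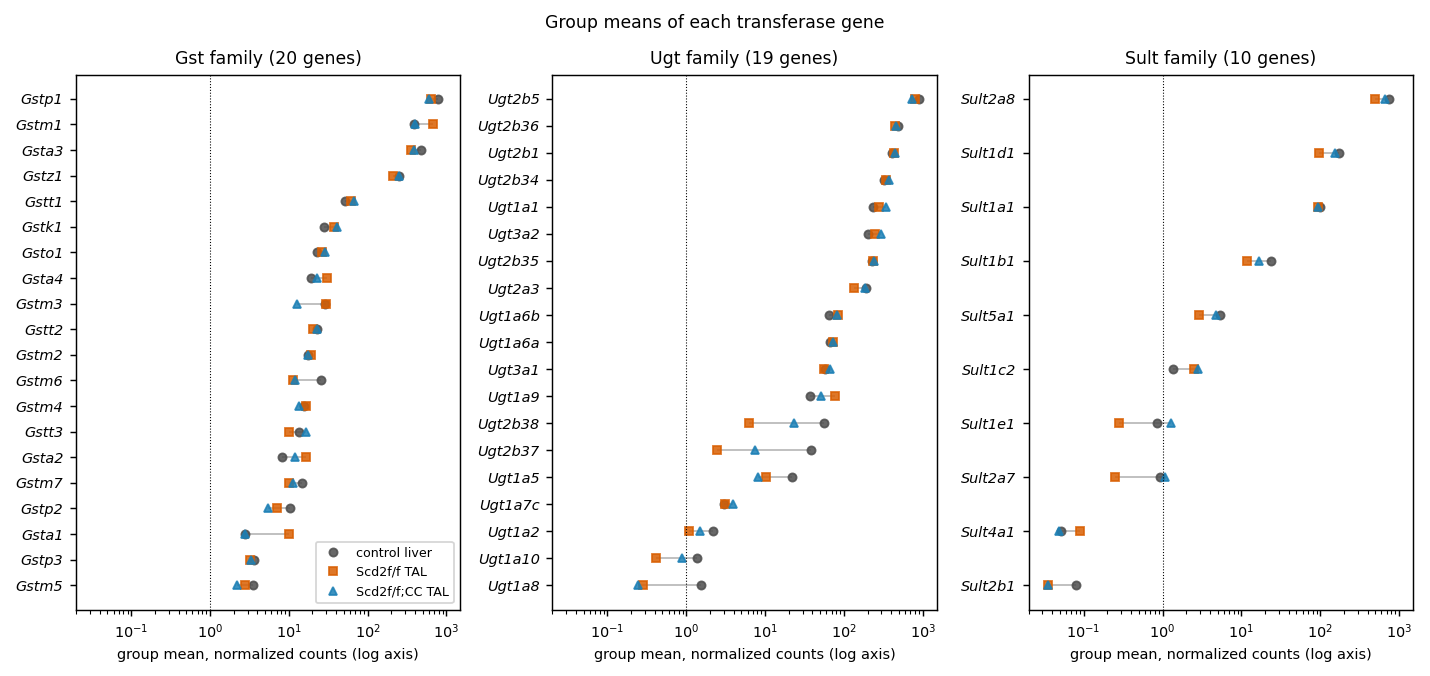
Mean of each of the 49 genes in each group, in normalized counts on a logarithmic axis, with 1 panel per family. Each point is the authors' mean of a group (grey circle, control liver; orange square, Scd2f/f TAL; blue triangle, Scd2f/f;CC TAL), grey lines join the lowest and highest of them, and the dotted line marks a mean of 1. Ugt2b37 and Ugt2b38 show the widest spread between groups of all members above the dotted line, and Ugt2b5, Gstp1 and Sult2a8 are the highest of their families.

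Among the transferases, 36 of 43 members stayed within 2-fold between Scd2f/f TAL and control liver, beside 10689 of all 11784 genes. In this comparison, 2 of 43 members (4.65%) were at least 2-fold higher, Ugt1a9 and Gsta1, beside 6.4% of all genes. At least 2-fold lower were 5 of 43, or 11.6%, beside 2.89% of all genes. These were Ugt2b37, Ugt2b38, Gstm6, Ugt1a5 and Ugt1a2. Of the 7 genes, Gstm6 alone stays within the limit of 10% for shared sequence, at 9.74%. The median log2 ratio was -0.08 over the 43 members and 0.03 over all genes, with 20 members higher and 23 lower, beside 6216 and 5498 of all 11784 genes. Summed over the 49 genes, the means were 6550 in control liver and 6120 in Scd2f/f TAL.

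Between the TAL groups, which differ in deletion of Scd2 in Col1a1-expressing cells, 39 of 43 members stayed within 2-fold, beside 11527 of all 11784 genes. With Scd2f/f;CC TAL set against Scd2f/f TAL, 2 of 43 members (4.65%) were at least 2-fold higher, Ugt2b37 and Ugt2b38, beside 0.645% of all genes. At least 2-fold lower were Gsta1 and Gstm3, again 2 of 43 (4.65%), beside 1.54% of all genes. All 4 genes exceed the limit for sequence shared with another gene. The median log2 ratio was 0.10 over the members and 0.01 over all genes, with 28 members higher and 15 lower, beside 5957 and 5698 of all genes. This comparison and the one with control liver share the Scd2f/f TAL means, so a high or low mean there moves both ratios in opposite directions.

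Scd2f/f;CC TAL and control liver differ in treatment and in genotype, which cannot be told apart. Of 43 members, 1 (2.33%) was at least 2-fold higher, Sult1c2, beside 4.51% of all genes. At least 2-fold lower were 5 (11.6%), Ugt2b37, Ugt1a5, Ugt2b38, Gstm3 and Gstm6, beside 2.55% of all genes. The median log2 ratio was -0.02 over the members and 0.04 over all genes, and the sum over the 49 genes was 6220 in Scd2f/f;CC TAL.

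**Figure D2:**
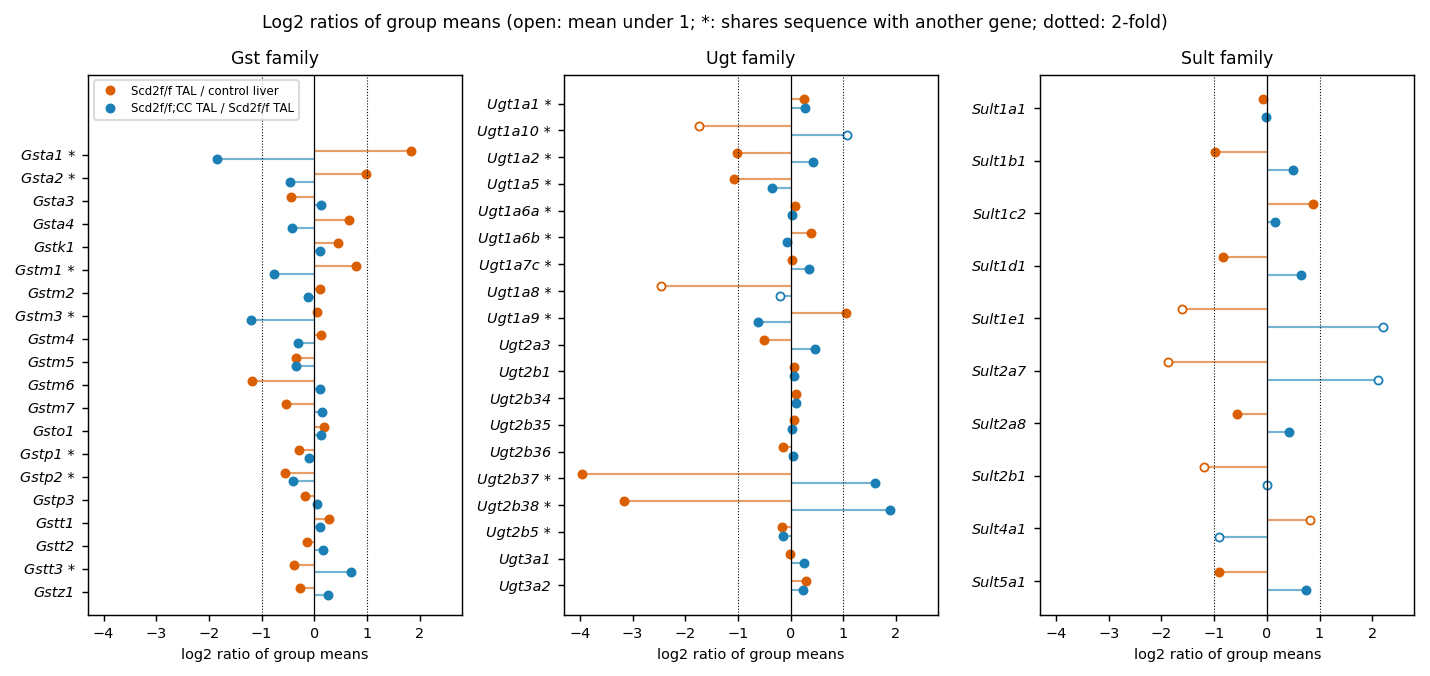
Log2 ratio of group means for each gene, with Scd2f/f TAL over control liver in orange and Scd2f/f;CC TAL over Scd2f/f TAL in blue. Open points have a mean under 1, asterisks mark genes that share more than 10% of their 50-base stretches with another gene, and dotted lines mark 2-fold. Most points lie within 2-fold, and Ugt2b37 and Ugt2b38 extend to -3.96 and -3.17 in orange.

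Among the Gst genes, the alpha class showed the largest difference. Gsta1 (chr9:78230656-78242684, plus strand) and Gsta2 encode inducible alpha enzymes. The mean of Gsta1 was 2.82 in control liver, 10 in Scd2f/f TAL and, with Cre, 2.79 in Scd2f/f;CC TAL. It was 3.55-fold higher in Scd2f/f TAL than in control liver and 3.58-fold lower in Scd2f/f;CC TAL than in Scd2f/f TAL, so that the control and Scd2f/f;CC means nearly coincided. Gsta2 was at 8.32, 16.5 and 12, with log2 ratios of 0.99 and -0.46. The 2 genes can be separated only in part in short reads. Their coding sequences are 97.6% identical. Of the 50-base stretches of Gsta1, 89.7% occur in another gene, most often in Gm3776, which holds 82.9%. For Gsta2 the share is 47.4%, and 32.9% occur in Gsta1. Over the aligned coding sequence, 13 bases differ. Bases 421 to 510 are shown as a window chosen for the most differing bases, with capitals at the 5 bases where Gsta1 differs from Gsta2.
Gsta2: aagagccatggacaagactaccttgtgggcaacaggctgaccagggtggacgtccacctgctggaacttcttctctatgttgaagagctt
Gsta1: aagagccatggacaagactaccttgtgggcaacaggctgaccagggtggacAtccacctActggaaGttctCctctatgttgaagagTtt
The means of both genes, above all that of Gsta1, are therefore uncertain, while both were highest in Scd2f/f TAL. Gsta4, which conjugates the lipid peroxidation product 4-hydroxynonenal, shares no stretch with another gene. Its means of 19.3, 30.3 and 22.7 gave log2 ratios of 0.65 and -0.42. Gsta3, which inactivates aflatoxin epoxide in mouse liver, had the opposite order, at 482, 354 and 385. Because Gsta3 makes up most of the class, the summed alpha class was 512, 411 and 422.

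The mu class is encoded by 7 neighbouring genes on chromosome 3. Gstm1 (chr3:108012255-108017973, minus strand), the main mu enzyme of liver, was at 389, 678 and 398. The ratios were 1.74-fold higher and 1.70-fold lower, below the 2-fold limit, yet Gstm1 carried most of the class sum of 494, 768 and 467. Of its 50-base stretches, 19.9% occur elsewhere. Gstm3 (chr3:107963696-107969283, minus strand) was at 28.5, 29.8 and 12.9. It was thus nearly level between the Scd2f/f groups and 2.31-fold lower in Scd2f/f;CC TAL than in Scd2f/f TAL. Gstm6 (chr3:107938847-107943749, minus strand) differed with treatment instead. Its means were 25.6, 11.2 and 12, which is 2.29-fold lower in Scd2f/f TAL than in control liver and 1.07-fold higher in Scd2f/f;CC TAL than in Scd2f/f TAL. The neighbours thus had different orders of the groups. The remaining mu genes, Gstm2, Gstm4, Gstm5 and Gstm7, had means between 2.18 and 19.1 and log2 ratios between -0.53 and 0.15 in both comparisons.

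In sum, the pi class was lowest in Scd2f/f;CC TAL. Gstp1, which is abundant in the liver of adult male mice, was at 780, 636 and 593, and per kilobase it was at 433, nearly level with Ugt2b5. Its near copy Gstp2, 98.1% identical in coding sequence, was at 10.5, 7.19 and 5.41. Reads of these genes cannot be fully separated, and their summed class with Gstp3 was 794, 646 and 602. Gstz1, the maleylacetoacetate isomerase of tyrosine breakdown, was at 251, 208 and 249. Gstt1 of the theta class was at 51, 62 and 66.3, and Gstk1, found in mitochondria and peroxisomes, was at 27.7, 37.9 and 40.6. Gsto1, an omega enzyme that reduces dehydroascorbate, was at 23, 26.2 and 28.7. For these last 3 genes, both groups that received DEN and WAD were above control liver, by less than 1.5-fold. Gstt2 and Gstt3 had means between 10.2 and 23, and Gstt3 had the highest log2 ratio of the Gst family between the TAL groups, at 0.69. Of the 50-base stretches of Gstt3, 20.6% occur in another gene, so its means are less certain. The median log2 ratio over the 20 Gst genes was -0.04 for Scd2f/f TAL over control liver and -0.03 for Scd2f/f;CC TAL over Scd2f/f TAL. Both are near 0 and turn positive, to 0.09 and 0.10, when a mean of 10 is required.

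The Ugt1a genes form a single locus on chromosome 1, in which alternative first exons are joined to shared downstream exons. All 9 share between 54.2% and 96.0% of their 50-base stretches with another gene, so the division of reads rests on what differs between first exons. For some isoforms this is little. The coding sequences of Ugt1a6a and Ugt1a6b are 98.4% identical, and those of Ugt1a9 and Ugt1a10 95.4%. Ugt1a1 (chr1:88211959-88218997, plus strand), the bilirubin-conjugating enzyme, was the most abundant of them per kilobase, and its means were 235, 280 and 339. Ugt1a9 (chr1:88070800-88218997, plus strand), which conjugates phenols, was at 37.5, 77.9 and 51. It was 2.08-fold higher in Scd2f/f TAL than in control liver and 1.53-fold lower in Scd2f/f;CC TAL than in Scd2f/f TAL. Ugt1a5 was at 21.9, 10.4 and 8.13, so that Scd2f/f TAL was 2.11-fold and Scd2f/f;CC TAL 2.69-fold below control liver. Ugt1a2, at 2.21, 1.1 and 1.48, was 2.01-fold lower in Scd2f/f TAL, just past the limit. The isoforms of 1 locus therefore had opposite ratios. Ugt1a6a and Ugt1a6b, which act on planar phenols, had means between 64.6 and 84.9, and Ugt1a7c stood between 3.02 and 3.95. Ugt1a10 and Ugt1a8 had a mean under 1 over the groups. Ugt1a10 was at 1.37, 0.414 and 0.877, and Ugt1a8 at 1.55, 0.283 and 0.247. As a class, Ugt1a summed to 435, 530 and 559, so the sum was higher in both groups with DEN and WAD.

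Apart from Ugt2b37 and Ugt2b38, the means of the Ugt2b genes differed by at most 1.25-fold between any groups. Ugt2b1 was at 410, 427 and 448, Ugt2b34 at 322, 344 and 371, Ugt2b35 at 225, 234 and 238, and Ugt2b36 at 485, 441 and 453. With Ugt2b5 they made up nearly all of the class sum of 2440, 2260 and 2260. The large ratios of Ugt2b37 and Ugt2b38 thus concerned a small portion of Ugt2b mRNA. Ugt2a3 was at 189, 134 and 184. Ugt3a1 and Ugt3a2, which use sugars other than glucuronic acid, were at 56.9, 56.5 and 67.3 and at 204, 251 and 295. They share 8.6% and 9.39% of their 50-base stretches with another gene, just within the limit of 10%. The median log2 ratio of the 17 Ugt genes was 0.03 between Scd2f/f TAL and control liver and 0.11 between the TAL groups. The first is near 0 and is -0.01 over all 19 Ugt genes.

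By its sum and its median ratios, the Sult family was lower in Scd2f/f TAL than in both other groups. Among the 6 Sult genes that reached a mean of 1, 5 were lower in Scd2f/f TAL than in control liver, beside 5498 of all 11784 genes. The median log2 ratio was -0.70, beside 0.03 for all genes. None of the 6 passed 2-fold in this comparison or in that between the TAL groups. In Scd2f/f;CC TAL, 5 of 6 were higher than in Scd2f/f TAL, beside 5957 of all 11784 genes, with a median of 0.46 beside 0.01. These were not the same 5 genes, since Sult1c2 was the exception against control liver and Sult1a1 between the TAL groups. None of the 10 Sult genes exceeds the limit for shared sequence. The summed means were 1040, 708 and 940.

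Sult2a8 (chr7:14410686-14446769, minus strand), a sulfotransferase of bile acids, made up most of this sum at 740, 499 and 667. It was 1.48-fold lower in Scd2f/f TAL than in control liver and 1.34-fold higher in Scd2f/f;CC TAL than in Scd2f/f TAL. Sult1d1 (chr5:87554645-87569027, minus strand), which sulfates catecholamines, was at 173, 97.5 and 153. The ratios were 1.77-fold lower and 1.57-fold higher. Sult1b1 (chr5:87513339-87538195, minus strand), which acts on thyroid hormones, was at 23.7, 11.9 and 16.8 and, at 1.99-fold lower, lay just inside the 2-fold limit. Sult5a1 was at 5.34, 2.87 and 4.78. Sult1a1, the main phenol sulfotransferase, was nearly level at 99, 93.4 and 92.7. Sult1c2 (chr17:53829637-53846339, minus strand) had the other order, at 1.37, 2.51 and 2.8, and was 2.04-fold higher in Scd2f/f;CC TAL than in control liver.

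The other 4 Sult genes had a mean under 1. Sult1e1 (chr5:87575969-87591594, minus strand), the estrogen sulfotransferase, was at 0.843, 0.277 and 1.28. Sult2a7 was at 0.921, 0.252 and 1.09. Both were lowest in Scd2f/f TAL, as were Sult2a8, Sult1d1, Sult1b1 and Sult5a1, but the number of reads behind such low means is unknown. Sult2b1, which sulfates cholesterol, was between 0.0348 and 0.0796, and Sult4a1, an orphan enzyme of brain, between 0.0484 and 0.091.

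The Ugt2 and Sult1 genes of chromosome 5 lie side by side, and the genes at 1 end of this cluster differed more than those at the other. In the order Ugt2b34, Ugt2b1, Ugt2b35, Ugt2b36, Ugt2b5, Ugt2b37, Ugt2a3, Ugt2b38, Sult1b1, Sult1d1 and Sult1e1, the log2 ratios of Scd2f/f TAL over control liver were between -0.17 and 0.10 for the first 5. For the next 6 they were between -3.96 and -0.50. The same 6 genes had log2 ratios between 0.46 and 2.21 for Scd2f/f;CC TAL over Scd2f/f TAL, and the first 5 between -0.15 and 0.11, with Sult1e1 the only gene of the 11 under a mean of 1. The division of the cluster was seen in the values and was not tested. The members of 1 chromosome region are listed here by position and are no replicates of each other.

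**Figure D3:**
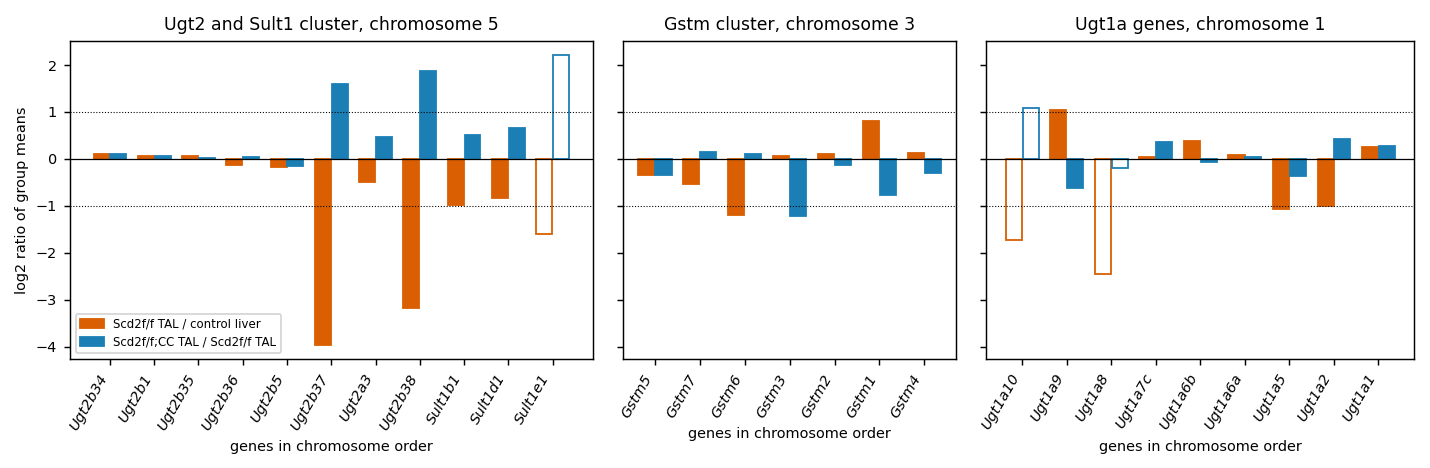
Log2 ratio of group means for the genes of 3 clusters in chromosome order, with Scd2f/f TAL over control liver in orange and Scd2f/f;CC TAL over Scd2f/f TAL in blue. Open bars have a mean under 1 and dotted lines mark 2-fold. In the chromosome 5 cluster the 6 genes from Ugt2b37 to Sult1e1 have orange bars below 0 and blue bars above 0, while neighbours in the Gstm and Ugt1a clusters point in different directions.

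The upstream bases of the members were searched for the cores of 2 response elements. The antioxidant response element, bound by NRF2 and known from Gst genes, was searched for only by the core TGACNNNGC. This core was found on either strand in the 250 bases before a RefSeq start of 3 of 43 members with such a window. The share was 5.66% of their 53 windows, beside 10.2% of 32851 windows of all genes. Shown with its neighbouring bases on GRCm38.p6 and with the core in capitals, it lies 121 bases before a RefSeq start of Gsta3, 42 before that of Gstm5 and 129 before 1 of those of Gstm7. That start of Gstm7 is an internal one, so its core lies within the annotated gene, and the window at the outermost start holds no match.
Gsta3: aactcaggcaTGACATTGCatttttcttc
Gstm5: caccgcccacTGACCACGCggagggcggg
Gstm7: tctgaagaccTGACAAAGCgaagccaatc
None of these 3 genes was past 2-fold in any comparison, and Gsta1, Gsta2 and Gstm1 have no match in these windows. The core of the xenobiotic response element, GCGTG, was found in 10 of 43 members, or 20.8% of windows, beside 28.2% of all windows. A match of one core may overlap a match of the other, and each was counted on its own. A match is a description of letters. Elements farther from the start, or with cores of other letters, were not searched, so a window without a match may still hold one.

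Other genes of the same pathway were described from lists, each given by its counts and its median. The supply of cofactors changed little in the means. Of 17 genes, none was past 2-fold in Scd2f/f TAL against control liver, nor between the TAL groups, and the medians were 0.04 and 0.10. Papss2, which makes the sulfate donor PAPS, was at 77, 47.3 and 78.1, so it was lowest in Scd2f/f TAL like most Sult genes. Papss1, the other PAPS synthase of the list, did not share this order. It was lowest in Scd2f/f;CC TAL, at 5.19, 4.98 and 3.92. Ugdh, which makes UDP-glucuronic acid, was at 117, 126 and 88.4. Among 19 other conjugating enzymes, Nnmt, the nicotinamide methyltransferase, was the only gene past 2-fold, at 70.7, 30.1 and 44.8. It was lower in Scd2f/f TAL than in control liver, 1 of 19 beside 2.89% of all genes. The medians of this list were 0.02 and 0.18.

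Of 16 genes of conjugate export and removal, 14 were higher in Scd2f/f TAL than in control liver, beside 6216 of all 11784 genes, with a median of 0.44. The export pump gene Abcc4 alone was at least 2-fold higher, at 1.72, 3.92 and 2.73, which is 1 of 16 beside 6.4% of all genes. The bile salt export pump gene Abcb11 was at 237, 443 and 452. Slco1a4, an uptake carrier, was the only gene at least 2-fold lower, at 50.3, 7.74 and 19.7, which is 1 of 16 beside 2.89% of all genes. It was also the only gene of this list past 2-fold between the TAL groups. There it was higher in Scd2f/f;CC TAL, 1 of 16 beside 0.645% of all genes, and the median was 0.07. Among 19 regulators, Bcl6, a repressor with a known part in the sex pattern of liver genes, was at 28.2, 10.9 and 24.6 and was the only gene past 2-fold. That is 1 of 19 lower in Scd2f/f TAL than in control liver, beside 2.89% of all genes. Between the TAL groups it is 1 of 19 higher in Scd2f/f;CC TAL, beside 0.645%. Nfe2l2, which encodes NRF2, was at 29.6, 44.6 and 39.7, and the medians of the list were 0.00 and 0.11.

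Another 13 NRF2 targets that passed the filter were mixed in Scd2f/f TAL against control liver. Hmox1, the heme oxygenase, was at 4.25, 17.4 and 11.1, G6pdx at 1.2, 4.08 and 2.83, and Osgin1 at 24.1, 76.4 and 81, all at least 2-fold higher. These were 3 of 13, beside 6.4% of all genes. Srxn1, sulfiredoxin, was at 114, 26.4 and 17.7. It was the only gene at least 2-fold lower, 1 of 13 beside 2.89% of all genes. The list median was 0.23. Between the TAL groups 11 of 13 were lower in Scd2f/f;CC TAL, none by 2-fold, beside 5698 of all 11784 genes lower, with a median of -0.36.

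Sex-biased genes of liver differed as well, in mice that were all male. Of 20 male-biased genes, 7 were at least 2-fold lower in Scd2f/f TAL than in control liver and 1 was higher, beside 2.89% and 6.4% of all genes, with a median of -0.86. Between the TAL groups 5 were at least 2-fold higher in Scd2f/f;CC TAL and none lower, beside 0.645% and 1.54% of all genes, with a median of 0.55. Moxd1 was at 21.3, 0.643 and 31.9, and Hsd3b5, a steroid dehydrogenase, at 128, 29 and 85.8. Only 9 of 18 female-biased genes in the table passed the filter on the mean. Of these, 3 were at least 2-fold higher in Scd2f/f TAL than in control liver and 1 lower, with a median of 0.43. Between the TAL groups 7 of 9 were higher in Scd2f/f;CC TAL, 2 of them and 1 lower gene by at least 2-fold, with a median of 0.46. The means of both lists were thus mostly higher there. Cyp2b9 was at 0.135, 6.08 and 31.1, and Cyp2a4 at 0.348, 32.6 and 12.6. Their part in the values of Ugt2b37, Ugt2b38 and the Sult genes was not tested.

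**Figure D4:**
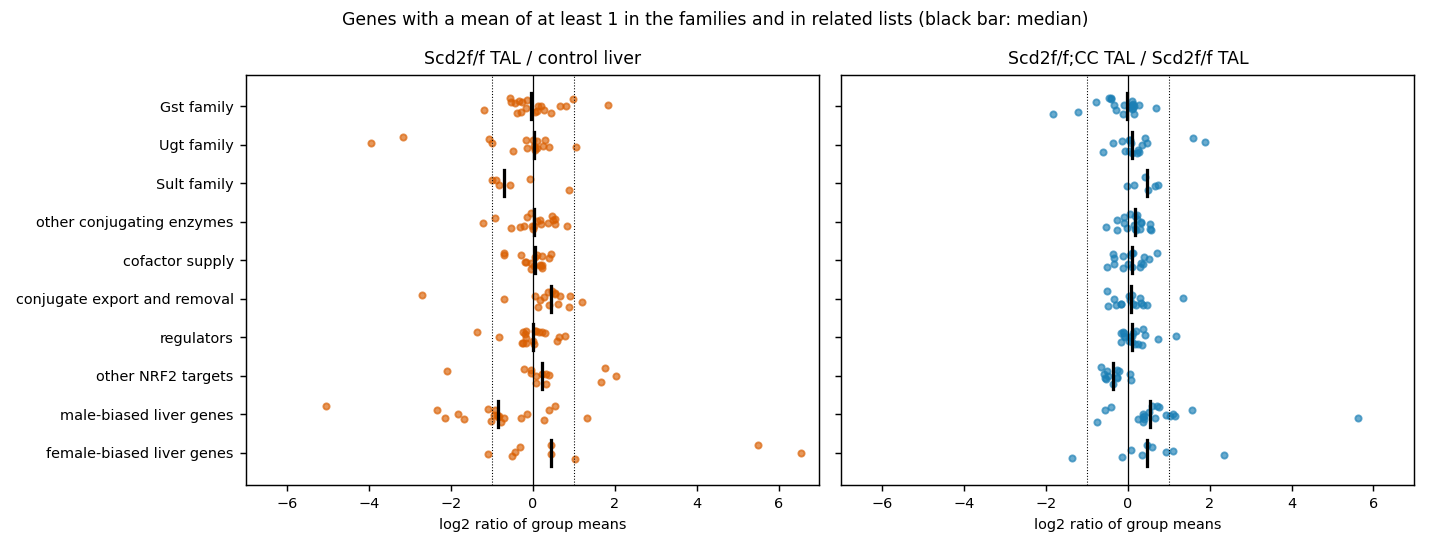
Log2 ratio of group means for genes that passed the filter in the 3 families and in 7 related lists, for Scd2f/f TAL over control liver (left) and Scd2f/f;CC TAL over Scd2f/f TAL (right). Each point is a gene, black bars are medians and dotted lines mark 2-fold. The Sult and male-biased medians lie below 0 on the left, at -0.70 and -0.86, and above 0 on the right, at 0.46 and 0.55.

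Markers of liver cell types moved between the groups beside these values. Hepatocyte markers, 9 genes, summed to 39400, 36200 and 39600, with medians of -0.03 and 0.12 and none past 2-fold in either of these comparisons. Stellate cell and fibroblast markers summed to 129, 253 and 124. At least 2-fold higher in Scd2f/f TAL than in control liver were 3 of 8, beside 6.4% of all genes. At least 2-fold lower in Scd2f/f;CC TAL than in Scd2f/f TAL were 4 of 8, beside 1.54% of all genes. Against control liver, 7 of 8 were higher in Scd2f/f TAL and 1 was lower, Des, at 4.25, 3.29 and 1.98. Acta2 is part of the sum but had a mean under 1 over the groups. It was at 1.27, 1.2 and 0.388 and so was not higher in Scd2f/f TAL. Macrophage markers summed to 77.7, 272 and 214, with 6 of 6 at least 2-fold higher in Scd2f/f TAL than in control liver, beside 6.4% of all genes. Cholangiocyte markers summed to 59, 53.9 and 19.2. Of 3, 2 were at least 2-fold lower in Scd2f/f;CC TAL than in Scd2f/f TAL, beside 1.54% of all genes. Krt7, Krt19 and Cftr stayed under 1 in every group. Endothelial markers summed to 91.2, 123 and 125, and T and B cell markers to 1.13, 3.91 and 2.49. Of the 6 T and B cell markers, 0 reached a mean of 1. In whole tissue, fewer cells of a type and less RNA per cell cannot be told apart. Gsta1 and Gstm1 were highest in Scd2f/f TAL, as were the sums for stellate cells and fibroblasts, for macrophages and for T and B cells. The part of these cells in the values of Gsta1 and Gstm1 was not tested.

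**Figure D5:**
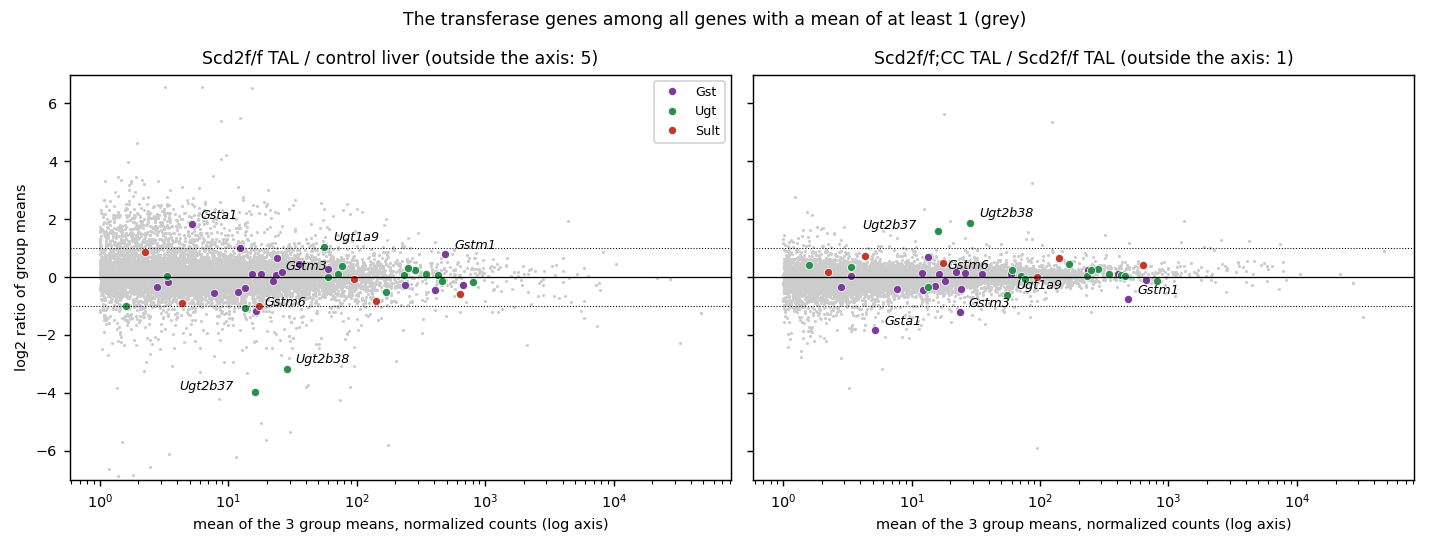
Log2 ratio of group means against the mean over the groups, on a logarithmic axis, for the 11784 genes that passed the filter (grey) and for the Gst, Ugt and Sult members among them (coloured). Left is Scd2f/f TAL over control liver and right is Scd2f/f;CC TAL over Scd2f/f TAL, dotted lines mark 2-fold, and genes beyond the vertical axis are counted in the titles. Of the abundant members, Ugt2b5 lies near 0 in both panels, while Gstm1 lies at 0.8 on the left and -0.77 on the right. Ugt2b37 and Ugt2b38 lie among the lowest genes on the left.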

How the data were processed

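Polyadenylated RNA was prepared with TruSeq V2 and sequenced on a NextSeq 500 by the authors, in 3 samples of each of 3 groups. Per the study's methods, reads were assigned by the authors to Gencode M3 genes with Partek's E/M algorithm, which divides shared reads between genes. The counts were then scaled to the upper quartile, and groups were compared with Partek Gene Specific Analysis. The submitters' processing notes also name STAR 2.6.1, Partek 6 and mm10. The deposited table gives for each group a signal, namely the least-squares mean of these normalized counts, rounded by the authors to 3 significant digits. Its columns for Scd2f/f TAL, given with each of the 2 comparisons made by the authors, were identical. It also holds the authors' p-values, false discovery rates, ratios and fold changes, which were not used. Depth is unknown and no value of a single mouse was used, so no test, error or interval could be computed, and a count of 0 sets no limit here.

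Ratios of means were taken on the log2 scale without a pseudocount. Genes were counted at 2-fold with a mean of at least 1 over the groups. The members and all lists were chosen with earlier results of these data known. Genes named are the 4 highest of each family, each member past 2-fold, a fixed list of 12 members, of which Sult3a1 is not in the table, and, of the related lists, members past 2-fold and the highest. The remaining members are given by their means or range, so that all 49 are accounted for. Other genes named (Abcb11, Acta2, Nfe2l2, Papss1, Papss2, Ugdh) were chosen after their values were seen. Spans in the table matched GENCODE M21 on GRCm38 for 45 of 49 members. Exon lengths, coding sequences and shared 50-base stretches came from M21, and promoter windows from RefSeq on GRCm38.p6, which held 43 members. Alternatives were other filters, folds, a pseudocount of 1, centring, protein-coding genes alone and leaving out members that share reads. The steps were tested on simulated data. Software was Python 3.11.15 with NumPy 2.4.6, pandas 2.3.3, Biopython 1.88 and Matplotlib 3.10.9.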

Additional observations from a re-analysis of the deposited data

How the results depend on the processing

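With group means alone there is no spread, so leaving out a mouse was not possible. No paired analysis was possible because the columns are group means and carry no replicate number. An alternative by protein identity was not run, since no protein table was used here. In its place, and chosen after seeing the data, the members that share more than 10% of their 50-base stretches and all Ugt1a genes were left out. This left 0 higher and 1 lower member (Gstm6) for Scd2f/f TAL over control liver, 0 and 0 between the TAL groups, and 1 lower for Scd2f/f;CC TAL over control liver, with a Gst median of 0.10 between the TAL groups. Without a filter on the mean, 10 members were lower in Scd2f/f TAL than in control liver, 5 were higher between the TAL groups, and the Sult median was -0.86. With a mean of at least 10, 1 was higher in Scd2f/f TAL, 1 lower between the TAL groups and 0 higher in Scd2f/f;CC TAL than in control liver, and the Gst medians were 0.09 against control and 0.10 between the TAL groups. With a pseudocount of 1, and with centring on the median of all genes, 0 were higher in Scd2f/f;CC TAL than in control liver. At 1.5-fold, 6 were higher and 8 lower in Scd2f/f TAL, and 5 higher and 4 lower between the TAL groups. At 3-fold these were 1 and 2, and 1 lower between the TAL groups, with 0 higher and 1 lower for Scd2f/f;CC TAL over control liver. For none of these settings was the share of all genes computed, so their counts stand without it. No ratio past 2-fold changed sign, but small values did. The Gst medians of 0.09 and 0.10 above replace -0.04 and -0.03. The Gst median for Scd2f/f;CC TAL over control liver went from -0.01 to 0.01 with a mean of at least 10. The Ugt median for Scd2f/f TAL over control liver went from 0.03 to -0.01 without the filter, and so did the log2 ratio of Gstm1 in Scd2f/f;CC TAL over control liver with centring. The other 83 values stayed within 1.5 times for counts and percentages and within 0.1 for medians. Of the log2 ratios of single genes, 15 moved by over 0.1, all with the pseudocount, and 129 did not. Low means carry the largest relative counting error, and the depth behind them is unknown.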
